A study of Mus musculus with 4 samples.

Results

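The miR-130/miR-301 and miR-148/miR-152 families were followed in bronchoalveolar stem cells (BASCs) with and without depletion of the transcription factor c-Myc. The members were taken by name from the list of real-time PCR assays, and comprised the mouse assays mmu-miR-130a, mmu-miR-130b, mmu-miR-301a and mmu-miR-301b in the first family and mmu-miR-148a, mmu-miR-148b and mmu-miR-152 in the second, 7 of the 517 mouse miRNAs on the cards. BASCs are putative stem cells of the junction between bronchiole and alveolus. They had been sorted as CD31 and CD45 negative, CD34 and Sca-1 positive cells from lungs of young ICR mice. The sorted cells were plated on irradiated mouse embryonic fibroblasts. Once established, they were kept on collagen-coated dishes by the results of the study, but passaged onto such fibroblasts by its methods. The 4 samples were 2 of control BASCs and 2 of Myc-depleted BASCs. The depleted BASCs were stable lines selected with puromycin after infection with a lentivirus carrying a c-Myc shRNA. The study used a negative control lentivirus, but calls the profiled controls both control and wild type. The labels do not say whether these controls were infected and selected. If they were not, infection and selection cannot be told apart from c-Myc depletion. The labels do not say which shRNA each depleted sample carried, nor whether replicates were separate cultures, so that p-values measure the spread between these samples alone, which may be technical.

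MiRNAs are short RNAs that repress mRNAs through pairing of their seed, bases 2 to 8 counted from the 5′ end, to sites mostly in the 3′ end of the transcript. The miR-130/miR-301 family is known from endothelial cells and from the remodelling of lung vessels, and the miR-148/miR-152 family for repressing the DNA methyltransferase Dnmt1. The mature sequences are shown because they explain why both families are treated together: the seeds differ by a shift of a single base. Sequences are from RefSeq (assembly GRCm38.p6, 3p arm of each hairpin), written 5′ to 3′ with the seed in capitals. An entry was matched for 6 of the 7 members, all but miR-301b.
miR-130a: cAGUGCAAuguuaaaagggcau
miR-130b: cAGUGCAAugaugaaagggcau
miR-301a: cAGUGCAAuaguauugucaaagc
miR-148a: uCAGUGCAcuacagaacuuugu
miR-148b: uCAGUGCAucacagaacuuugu
miR-152: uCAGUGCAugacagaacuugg

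The letters AGUGCA lie in the seed of all 6 members shown, in bases 2 to 7 of the miR-130/miR-301 family and in bases 3 to 8 of the miR-148/miR-152 family. Of 1679 mouse mature miRNAs in the same table, 12 (0.715%) had these letters in the seed. Outside the seed the members diverge to different degrees. miR-130a and miR-130b carry the same letter at 20 of 22 positions, whereas miR-130a and miR-301a do so at 12 of 22. Within the second family, miR-148a and miR-148b agree at 20 of 22 positions, and miR-148b and miR-152 at 19 of 21.

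The 7 members come from 6 places in the genome (GRCm38.p6). Mir130a, at chr2:84741115-84741178 on the minus strand, overlaps no other annotated gene. Mir130b (chr16:17124061-17124142, minus strand) and Mir301b (chr16:17124400-17124496, minus strand) lie 257 bases apart within the span of the protein-coding gene 2610318N02Rik. The gene of miR-301a, Mir301, lies at chr11:87113004-87113089 on the plus strand within Ska2, a gene of the kinetochore. Mir148a (chr6:51269812-51269910, minus strand) lies within the predicted gene Gm38821. Mir148b (chr15:103285125-103285221, plus strand) and Mir152 (chr11:96850393-96850465, plus strand) lie within Copz1 and Copz2, which encode related subunits of the COPI vesicle coat. Whether these positions are exonic or intronic is not given by the annotation table used. c-Myc with its partner Max binds the E-box, CACGTG in its canonical form. These letters, which read the same on both strands, were in none of the 4 host gene windows that could be searched (Ska2, Copz1, Copz2 and 2610318N02Rik, from 250 bases before to 50 bases after the start), and in 7.15% of all 32851 such windows.

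Each miRNA was read by real-time PCR as the cycle number at which product became detectable, the threshold cycle or CT. A lower CT means more RNA, and 1 cycle corresponds to 1 on the log2 scale. All 7 members were on card A of the 2 cards, in 1 well each, and gave a CT in all 4 samples. U6, a small nuclear RNA with 4 wells on the card, was the reference, and ΔCT is the distance in cycles of a miRNA from the mean of those wells. Over the cards, 334 to 351 of 768 wells per sample gave a CT, and 263 mouse miRNAs were detected, that is below CT 35 in 1 sample or more. On card A the mean CT of U6 was 18.9 and 19.1 for the controls, against 18.9 and 18.8 after depletion.

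The cell type was checked against miRNAs typical of particular cells. Of 7 epithelial miRNAs 5 were detected, none before CT 31.5 and only miR-200c in a depleted sample, and miR-205 and miR-203 were not detected. All 5 assayed miRNAs of fibroblasts and other mesenchymal cells were detected, with miR-145 at CT 24.83 to 24.99 in the 4 samples. The summed level of these mesenchymal miRNAs was -4.86 and -4.66 in the controls and -4.32 and -4.38 after depletion (log2 of the sum relative to U6). Of its 5 miRNAs 3 had a higher mean level after depletion, and their median log2 change was 0.043. For the epithelial miRNAs the same sum was -11.2 and -12.7 in the controls and -13.5 and -13.3 after depletion. Both endothelial miRNAs were detected, and their sum was -9.86 and -9.68 in the controls and -11.8 and -12.0 after depletion. All 6 assayed blood cell miRNAs were detected in at least 1 sample, with a sum of -11.6 and -13.1 in the controls and -10.0 and -10.0 after depletion. Of these 6 only 2 had a higher mean level after depletion, with a median log2 change of -0.44. The sum rose through miR-486, which had no CT below 35 in the controls and CT 29.0 and 29.1 after depletion. The part of fibroblasts or other cells in the results was not tested, and more RNA per cell cannot be told apart from more cells of a type.

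After c-Myc depletion 6 of the 7 members were at higher levels than in either control sample, and miR-130b was not. miR-130a changed most, miR-152 had the closest CT values between replicates, and the other 4 had smaller or less certain increases. Groups that did not overlap, with the depleted samples higher, were found for 44.6% of the 130 mouse miRNAs of card A that were below CT 35 in all samples. The median log2 change was 0.52 for the 4 members of the miR-130/miR-301 family and 0.86 for the 3 members of the miR-148/miR-152 family, beside 0.41 for those 130 miRNAs. A good part of card A therefore moved in the same direction as the members.

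**Figure D1:**
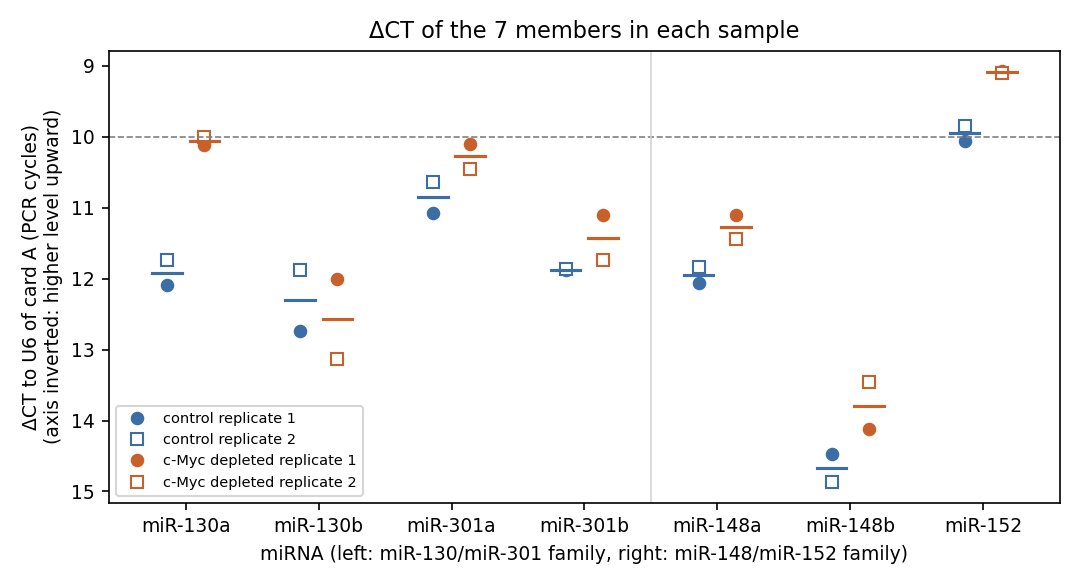
ΔCT to U6 of card A (PCR cycles, axis inverted so that higher levels are upward) of each member in the 2 control and the 2 c-Myc depleted samples, with short bars at the group means and a dashed line at the ΔCT limit of 10 used for testing. The groups are apart for all members except miR-130b, and the depleted points of miR-130a reach the dashed line while its controls lie near 12.

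miR-130a was the member with the largest change. Its CT was 31.0 and 30.8 in the controls and 29.0 and 28.8 after depletion, with corresponding ΔCT values of 12.1, 11.7, 10.1 and 9.998. Both depleted samples were thus well separated from both controls. The mean ΔCT went from 11.9 ± 0.245 to 10.1 ± 0.0798 (SD, n = 2 each), a 3.63-fold rise. The log2 change was 1.86 (standard error 0.18, adjusted p = 0.0106 from limma over the 80 miRNAs past the filter described next). The log2 change was 1.92 without depleted replicate 1 and 1.81 without depleted replicate 2. With a single depleted sample limma used 1 variance pooled over the 80 miRNAs, so no p-value is given for these fits. In the fit of all 4 samples 26 of the 80 miRNAs (32.5%) had an adjusted p below 0.05. Of these 20 (25%) were higher after depletion. miR-130a also met the criteria of the study, a fold change above 2 with an unadjusted p below 0.05, which 20% of the 80 met. The fold change that the study itself reports for miR-130a is well above the 3.63 found here. The reason for this difference was not tested.

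The filter of the study keeps a miRNA when its lowest ΔCT over the 4 samples is below 10. miR-130a passed it through depleted replicate 2 alone, with a ΔCT of 9.998, the value nearest to the limit among the 80. The next miRNAs inside the limit were miR-378 and miR-132, at 9.97 and 9.92, and the first outside it were miR-15b* and miR-24-2*, both at 10.02. A miRNA that enters through the group where it is high is bound to differ between the groups, so the test of miR-130a in this fit is not independent of the filter. In a fit over all 263 detected miRNAs its standard error was 0.23 and the adjusted p was 0.0697 from limma. In that fit 0.76% of the miRNAs had an adjusted p below 0.05 and 25.5% an unadjusted p below 0.05. With a variance trend, a choice added after the data were seen, 6.84% of the 263 were called, and the adjusted p of miR-130a was 0.0237.

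The 2 CT values of miR-130a in the depleted samples differ in form from those of the other members. They carry 8 decimals, as do 24 CT values in the whole table, which belong to 13 miRNAs and are all in depleted samples. The other CT values have at most 6 decimals. For miR-130a the 2 values less the U6 mean of their sample leave a ΔCT of only 4 decimals, 10.1105 and 9.9976 (within 1e-07 cycles). None of the 161 values of at most 6 decimals on card A of either depleted sample did so. Among the card A values of 8 decimals, 2 of 11 in depleted replicate 1 and 5 of 13 in depleted replicate 2 did. Most values of 8 decimals thus left no such rounded ΔCT. The ΔCT of miR-130a had 4 decimals in both controls too, like 6 of 183 and 6 of 179 values there. Whether the depleted CT values were computed back from rounded ΔCT cannot be read from the table. The other 6 members have no such value, and without the 13 miRNAs the change of miR-130a cannot be estimated.

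miR-152 rose in both depleted samples by nearly the same amount. Its CT was 28.96 and 28.95 in the controls and 27.94 and 27.95 after depletion, and its ΔCT was 10.1, 9.85, 9.08 and 9.11 in the same order. Both depleted samples were higher than both controls, and 3 of the 4 samples were below the ΔCT limit, including a control. The log2 change was 0.86, a 1.82-fold rise (standard error 0.14, adjusted p = 0.0224 from limma over the 80 miRNAs). The log2 change was 0.85 without depleted replicate 1 and 0.88 without depleted replicate 2. The adjusted p was 0.125 from limma over all 263 detected miRNAs. Over the 80 without the 13 miRNAs that hold CT values of 8 decimals it was 0.0711 from limma. miR-152, encoded within Copz2, is the most abundant member in both groups.

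The other 5 members had a lowest ΔCT above 10 and were tested only in the fit over all 263 detected miRNAs. None had an adjusted p below 0.05 there. miR-148a had ΔCT values of 12.1 and 11.8 in the controls and 11.1 and 11.4 after depletion, and both depleted samples were higher. Its log2 change was 0.68 (95% interval -0.02 to 1.37, adjusted p = 0.201 from limma). miR-148b, which differs from miR-148a at 2 positions, was the least abundant member. Its ΔCT was 14.5 and 14.9 in the controls and 14.1 and 13.5 after depletion, a log2 change of 0.88 (95% interval -0.13 to 1.89, adjusted p = 0.238 from limma). In this fit, the one that holds all 3 members of the miR-148/miR-152 family, none passed. Their estimates with U6 were 0.68, 0.88 and 0.86, and with quantile normalization -0.063, 0.62 and 0.84 for miR-148a, miR-148b and miR-152. With a sample left out that of miR-148b ranged from 0.55 to 1.21.

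In the miR-130/miR-301 family the remaining members moved less. The ΔCT of miR-301a was 11.1 and 10.6 in the controls and 10.1 and 10.4 after depletion, a log2 change of 0.58 (95% interval -0.25 to 1.41, adjusted p = 0.322 from limma). The depleted samples were both higher, and the nearest samples of the groups were closer to each other than the controls were. Its change was 0.08 to 0.30 under the 5 other scalings, and 0.36 to 0.81 with a sample left out. miR-301b read ΔCT 11.88 and 11.86 in the controls and 11.1 and 11.7 after depletion, a log2 change of 0.45 (95% interval -0.43 to 1.33, adjusted p = 0.446 from limma). Depleted replicate 2 of miR-301b was close to the controls, whereas replicate 1 was higher, and its change ranged from 0.13 to 0.77 with a sample left out.

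miR-130b, which shares its seed and 20 of its 22 letters with miR-130a, showed no resolved change. Its ΔCT was 12.7 and 11.9 in the controls and 12.0 and 13.1 after depletion. The groups overlapped, and the replicates were farther apart than for any other member in both groups. The log2 change was -0.27 (95% interval -1.93 to 1.39, adjusted p = 0.793 from limma), and its sign turned with a sample left out, being 0.16 without control replicate 2 and 0.30 without depleted replicate 2.

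Since all members share a card, their CT values can be compared with each other in the same sample without any reference RNA. There are 9 pairs of family mates, and in 6 of them the groups did not overlap, in either direction. The gap between miR-130b and miR-130a was 0.64 and 0.13 cycles in the controls and 1.90 and 3.14 cycles after depletion. Relative to miR-130b, miR-130a therefore gained 2.13 cycles (standard error 0.67). miR-130a also gained 1.28 cycles on miR-301a (standard error 0.24) and 1.41 cycles on miR-301b (standard error 0.41). In each of these pairs both depleted samples lay beyond both controls, a separation that was not particular to pairs with miR-130a. The exact two-sided permutation test of each gave p = 0.33, the smallest value that 2 samples against 2 allow, and 0.500 after adjustment over the 9 pairs, so that no difference within a family could pass a threshold. All 3 gaps rest on the depleted CT values of miR-130a that carry 8 decimals.

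The remaining 6 pairs involve no such values. The CT of miR-301a minus that of miR-130b was -1.65 and -1.24 cycles in the controls and -1.91 and -2.69 cycles after depletion, groups that did not overlap. The gap between miR-301b and miR-301a was 0.80 and 1.23 cycles in the controls and 1.01 and 1.29 after depletion, a shift of 0.13 (standard error 0.25). Its groups overlapped. The CT of miR-152 minus that of miR-148a was -1.999 and -1.987 cycles in the controls and -2.03 and -2.33 cycles after depletion, so that these 2 family mates changed by amounts that differed by 0.18 (standard error 0.15). The gap between miR-148b and miR-152 shifted by 0.02 (standard error 0.46). The genes of miR-130b and miR-301b are neighbours. The CT of miR-301b minus that of miR-130b was -0.85 and -0.02 cycles in the controls and -0.90 and -1.40 cycles after depletion, a shift of -0.72 (standard error 0.48, exact permutation p = 0.33) that was not resolved.

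**Figure D2:**
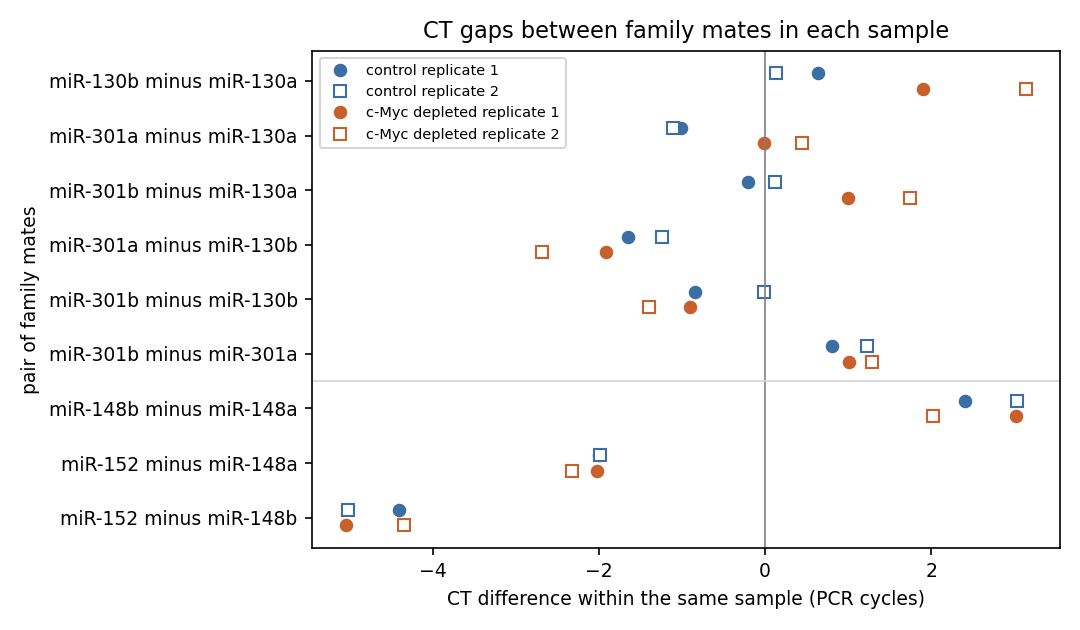
CT of a member minus that of its family mate in the same sample, in PCR cycles and in the order given on the axis, for the 9 pairs of family mates in the 2 control and the 2 c-Myc depleted samples. The 3 pairs with miR-130a show depleted samples shifted to the right by 1.28 to 2.13 cycles on average, and the pairs of the miR-148/miR-152 family shift by 0.20 or less in either direction.

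The size of each change depended on the reference. Subtracting U6 of card A lowered each change by the 0.15 cycles by which U6 itself was higher in the depleted samples. Centring each sample on the median CT of the miRNAs detected in all samples gave log2 changes of 1.47 for miR-130a and 0.47 for miR-152. Over the 80 miRNAs limma then gave an adjusted p of 0.0260 and 0.120, with 3.75% of them called. miR-130a is among these 80 through 1 depleted sample alone, so its p-value is not independent of the filter here either. Between U6 and this centring the median change went from 0.68 to 0.29 for the 7 members. It went from 0.41 to 0.02 for the 130 miRNAs of card A. Such a change of reference shifts all miRNAs of card A by the same amount, so the equal shift tells nothing about the members. miR-130a and miR-152 kept groups that did not overlap under each of the 6 scalings. There the log2 change ranged from 1.36 to 1.86 for miR-130a and from 0.36 to 0.86 for miR-152. The 2 snoRNAs, in 1 well each on card A, moved apart. After depletion snoRNA135 was higher by 1.07 cycles and snoRNA202 lower by 0.17, so their mean is an uncertain reference. Before any reference miR-152 rose by 1.01 cycles, no more than snoRNA135. miR-301b changed sign, to -0.053 with median centring within card A and to -0.023 with quantile normalization. miR-148a changed sign with quantile normalization (-0.063). The number of members with non-overlapping groups, depleted samples higher, was 6 with U6 of card A as reference. It was 4 with median centring, with snoRNA135 and snoRNA202 and with U6 pooled over both cards, where 33.8%, 36.2% and 36.2% of the 130 miRNAs of card A had such groups. It was 2 with median centring within the card and with quantile normalization, near the 23.1% and 29.2% of those miRNAs. With median centring within the card miR-130b was lower in both depleted samples, without overlap.

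**Figure D3:**
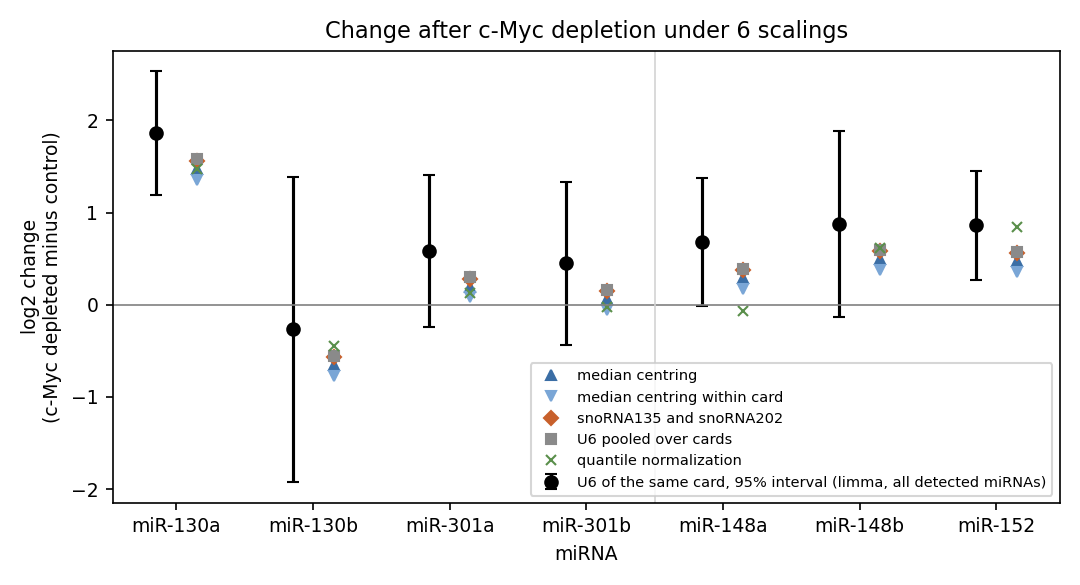
Log2 change after c-Myc depletion (depleted minus control) of each member, with the 95% interval from limma over all detected miRNAs for U6 of the same card (black points, n = 2 per group) and the value under 5 other scalings (coloured points, no interval). miR-130a lies above 1 under all of them, miR-130b below 0 under all of them, and miR-301b and miR-148a reach 0 or cross it under at least 1.

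The CT values themselves were not evenly spread between whole cycles. Of the 1260 CT values up to 35 in the table, 544 (43.2%) had a fractional part of 0.9 or more, where an even spread would give 10%. The share per sample ran from 31.2% in depleted replicate 1 to 54.1% in depleted replicate 2. Among the 28 values of the members it was 17, with 4 of 4 for miR-152, 3 of 4 for miR-148a and 2 of 4 for each other member. Before the U6 subtraction, CT fell from controls to depleted samples by a mean of 2.01 cycles for miR-130a, 1.01 for miR-152 and 1.03 for miR-148b, near whole cycles, and by 0.83 for miR-148a, 0.73 for miR-301a and 0.60 for miR-301b. For miR-130b the difference was -0.12. The replicates of miR-152 differed by 0.00185 cycles in the controls and 0.00858 in the depleted samples. The median over 130 miRNAs of card A was 0.238 and 0.241 cycles. Gaps below 0.02 cycles were not particular to miR-152, being found for 10.8% of these miRNAs in the controls and 8.46% in the depleted samples. The 4 U6 wells of a card A sample had an SD of 0.0456 to 0.212 cycles. The replicate spread of miR-152 is thus smaller than that of wells of the same sample, and the part of the uneven CT values in its p-value was not tested.

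**Figure D4:**
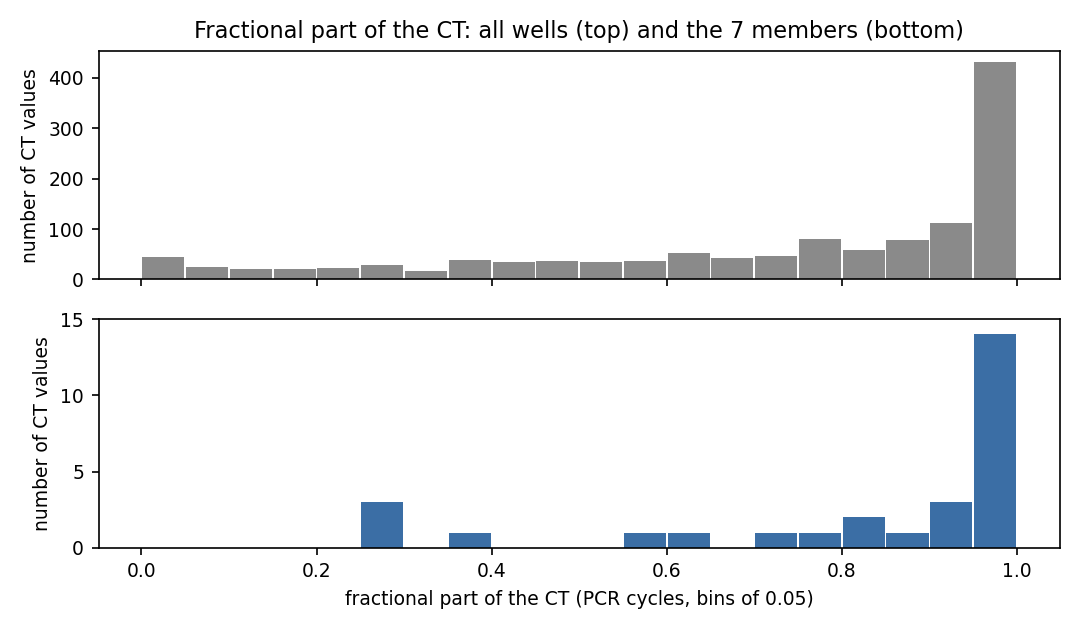
Number of CT values by fractional part (PCR cycles, bins of 0.05) for all wells with a CT up to 35 (top, 1260 values) and for the 7 members (bottom, 28 values). Both pile up just below a whole cycle, with 432 values of all wells and 14 of the members in the last bin.

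Levels were compared as copies per cell by the formula of the methods, which converts CT through a standard of synthetic lin-4 miRNA. Assays can differ in efficiency, so the order between miRNAs is that of these assays. In control BASCs miR-152 had 92.2 ± 0.0830 copies and miR-301a 49.7 ± 5.72 (SD, n = 2 each). They were followed by miR-301b with 24.6 ± 2.25, miR-130a with 23.9 ± 1.57 and miR-148a with 23.3 ± 0.152 (SD, n = 2 each), 3 members whose levels were not resolved from each other beyond their spread. miR-130b had 18.7 ± 5.78 and miR-148b 3.65 ± 1.07 copies (SD, n = 2 each). By these assays the control means of miR-130b and miR-130a differed by less than the SD of miR-130b.

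After depletion miR-152 stayed first, with 185 ± 0.774 copies (SD, n = 2). miR-130a moved to the second place with 95.6 ± 6.27 copies, not resolved from miR-301a with 82.6 ± 13.2 (SD, n = 2 each). miR-148a with 41.5 ± 6.24 and miR-301b with 38.0 ± 11.2 copies also differed by less than their spread, and miR-130b had 18.1 ± 9.31 and miR-148b 7.47 ± 2.44 (SD, n = 2 each). Among the 263 detected miRNAs, ordered by CT, miR-130a went from place 107 to 73 and miR-152 from 64 to 50. miR-301a was at place 77 and 80, and miR-130b at 119 and 131.

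Related miRNAs were drawn from the same cards by seed and by hairpin. Of 6 such assays 4 were detected, 2 were among the 80 miRNAs tested and 1 had an adjusted p below 0.05. miR-19a and miR-19b share 6 bases of the miR-130/miR-301 seed, shifted by a single position, and are shown with their seed in capitals.
miR-19a: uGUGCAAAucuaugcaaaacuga
miR-19b: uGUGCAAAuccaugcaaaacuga
miR-721: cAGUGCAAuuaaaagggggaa

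The log2 change was 1.28 for miR-19b (standard error 0.13, adjusted p = 0.0106 from limma over the 80 miRNAs and 0.0956 over all 263) and -0.34 for miR-19a (standard error 0.24, adjusted p = 0.411 from limma over the 80), whose ΔCT was 8.08 and 7.50 in the controls and 8.11 and 8.14 after depletion. As with miR-130a, the depleted CT values of miR-19b carry 8 decimals. miR-721 has the whole seed of the miR-130/miR-301 family and gave a CT in 1 of its 2 wells in control replicate 1 alone. miR-291b-3p, which shares AGUGCA in its seed, and miR-148a*, the other arm of the miR-148a hairpin, gave no CT in any sample. The assay of miR-130b*, the other arm of the miR-130b hairpin, is on card B. Its mean CT was 33.1 and 32.7 in the controls and 33.3 and 33.6 after depletion. The log2 change of miR-130b* was -1.31 (adjusted p = 0.125 from limma over all 263 miRNAs), and -0.59 before the subtraction of U6 of card B, which was itself higher by 0.72 cycles in the depleted samples. By the means of their wells, both depleted samples of miR-130b* were thus lower than both controls, also before the subtraction, without passing the test. Single wells overlapped before the subtraction, with CT 33.09 in a well of depleted replicate 1 and 33.20 in a well of control replicate 1.

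The miRNAs with the pattern most like that of miR-130a among the 80 tested, by the root mean square difference of centred ΔCT over the 4 samples, were miR-574-3p (0.139 cycles), miR-34c (0.183) and miR-193b (0.194). Those most like miR-152 were miR-222 (0.0356 cycles), let-7i (0.0657) and miR-132 (0.0964). All 6 are on card A. With 4 samples these likenesses are a description.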

How the data were processed

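MiRNAs were measured in 2 control and 2 c-Myc depleted BASC samples with TaqMan Rodent MicroRNA Array cards A and B. The authors deposited a single table of threshold cycles (CT) per well, before normalization, exported from RQ manager, the instrument software. The submitters' processing notes name Partek 6.4. Groups and replicate numbers came from the sample titles.

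A ceiling of CT 35 was applied, also to empty wells, repeated wells were averaged, and each card was referred to the mean of its own U6 wells (ΔCT). The negative of ΔCT was fitted with R 4.3.3 and limma 3.58.1 (lmFit, eBayes, Benjamini-Hochberg adjustment) over the 80 mouse miRNAs with a lowest ΔCT below 10, and over all 263 detected. Only 2 members passed that filter. Gaps between family mates were compared with exact permutation tests (scipy 1.17.1). Scripts were tested on simulated ΔCT. Copies were computed as 10 raised to (40 - CT)/3.34, over 22. The number of samples limits the precision.

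The members and lists were chosen with earlier results of these data known. The miRNAs named were all members, assays sharing at least 6 seed bases with a member or from the other arm of its hairpin, and the 3 tested miRNAs most alike to each tested member. The assay names of the members, miR-19a and miR-19b give no arm and were matched to the 3p arm by nomenclature. miR-350, whose name gives no arm either, was not matched to an arm and was left out of the seed search. miR-378, miR-15b* and miR-24-2* are named as neighbours of the filter limit. Alternatives were 5 other references or scalings, other CT ceilings and filters, an analysis of variance per miRNA as in the methods of the study, a variance trend, a replicate block, and each sample left out. A crossed block and a trend over all detected miRNAs were added after the data were seen. The mRNA arrays of the study were not used here.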

Additional observations from a re-analysis of the deposited data

Results flagged for a closer look

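The cards also carry a rat assay for miR-148b-5p, the other arm of the miR-148b hairpin by its name, which belongs to none of the comparisons above. It is on card B, in 2 wells. In the controls 1 well of each sample gave a CT, 37.0 and 34.9, whereas in the depleted samples both wells did, at 37.0 and 33.0 in replicate 1 and at 34.98 and 34.04 in replicate 2. The lowest CT, 33.0, was in a depleted sample and earlier than in any control well. Whether this assay reads the mouse miRNA was not tested, and levels this near CT 35 rest on few molecules.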

How the results depend on the processing

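Of 18 alternatives for miR-130a and 19 for miR-152 all gave a rise, and 11 and 7 had an adjusted p below 0.05. For miR-130a these calls are no support, since it is among the 80 miRNAs through 1 depleted sample alone. Changing only the CT ceiling, empty wells, test or miRNAs tested left 1.86 and 0.86 as they were, so that direction is no check. With 2 samples in each group, the adjusted p ranged from 0.00456 to 0.767 for miR-130a and from 0.0142 to 0.831 for miR-152 (limma). The highest came with median centring within each card. There both standard errors were 0.76, from 1 variance pooled over the 80 miRNAs. For miR-130a the call was lost with median centring within each card (1.36), quantile normalization (1.47), the analysis of variance per miRNA (1.86, adjusted p 0.0502), and all detected miRNAs tested (1.86, adjusted p 0.0697). For miR-152 it was lost with median centring (0.47), the same within each card (0.36), snoRNA135 and snoRNA202 (0.56, adjusted p 0.0501), U6 pooled over both cards (0.58), quantile normalization (0.84), the analysis of variance per miRNA (0.86), all detected miRNAs tested without (0.86) or with a variance trend (0.86, adjusted p 0.0596), and without the miRNAs that hold CT values of 8 decimals (0.86). With 1 sample left out the changes ranged from 1.69 to 2.03 and from 0.75 to 0.97. In the fits without a depleted sample both standard errors were 0.99, from 1 variance of the controls pooled over the 80 miRNAs. Whether the calls hold there cannot be read from these fits.

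The number of members past the test was 2, miR-130a with the limit above, where 26 of the 80 miRNAs were called. It was 1 with median centring (3 of 80 called), with snoRNA135 and snoRNA202 (18), with U6 pooled over both cards (14) and with all detected miRNAs tested with a variance trend (18 of 263). None passed, 0 in all, with quantile normalization (4 of 80 called), median centring within each card (1) or the replicate block (0). The same held for the analysis of variance per miRNA (3) and with all detected miRNAs tested (2 of 263). It held too without the miRNAs with 8 decimals (3 of 67). With ΔCT below 10 in all 4 samples neither member was tested. The replicate numbers do not pair the samples as far as the labels say, and same-numbered samples deviated in opposite directions (Pearson r = -0.44 across the 80 miRNAs, which are not independent). With the replicate block the changes stayed at 1.86 (adjusted p 0.0650) and 0.86 (adjusted p 0.0967, limma), and calls over the 80 miRNAs went from 26 to 0. With the numbers crossed, 33 were called.

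Among the 5 members tested over all detected miRNAs, a CT ceiling of 32 gave miR-148a (0.68) an adjusted p of 0.0449 from limma, where calls over the 263 miRNAs went from 2 to 95, and turned miR-148b, which lies beyond that ceiling in all samples, to -0.15. miR-301b turned to -0.053 with median centring within each card and to -0.023 with quantile normalization, and miR-148a to -0.063 with the latter. With 1 sample left out, miR-130b ranged from -0.83 to 0.30, and the gap changes from -0.080 to 0.34 for miR-301a and miR-301b, from -0.70 to 0.29 for miR-148a and miR-148b and from -0.33 to 0.36 for miR-148b and miR-152. The other 6 gap changes kept their sign. With CT shifted to equal U6, copies per cell were 0.948 to 1.07 times those reported, and 3 of 14 values moved by more than the spread between replicates.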
